A study of Mus musculus with 12 samples.

Results

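Toll-like receptors (TLRs) are the sensors with which macrophages detect microbial products, and the genes described here are mouse TLRs other than the LPS receptor TLR4, with the chaperone of the endosomal ones. The 10 genes are the surface receptors Tlr1, Tlr2, Tlr5, and Tlr6, the endosomal receptors Tlr3, Tlr7, Tlr8, Tlr9, and Tlr13, and Unc93b1. They were taken by name out of the 43626 genes counted, and all 10 were among the 14308 genes with enough reads to be tested. Each gene was matched by its Ensembl identifier, from ENSMUSG00000044827 for Tlr1 to ENSMUSG00000036908 for Unc93b1.

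As background, surface TLRs bind components of bacterial walls and flagella, and TLR2 pairs with TLR1 or TLR6 to distinguish kinds of lipopeptides. Endosomal TLRs bind nucleic acids after a microbe or a dying cell has been taken up, and they depend on the membrane protein UNC93B1 to leave the endoplasmic reticulum and reach endolysosomes. Most TLRs signal through the adaptor MYD88, whereas TLR3 signals through TICAM1, and both routes end in inflammatory cytokines and type I interferon.

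The study asked how 3′-sialyllactose (3′SL), a sialylated human milk oligosaccharide (HMO), changes the response of mouse bone marrow-derived macrophages (BMDMs) to LPS. Stranded poly(A) RNA-Seq was performed on 12 libraries, 3 each from cells that received PBS alone, 3′SL at 100 μg/mL (called HMO in the labels), LPS at 10 ng/mL, or both agents for 6 hours, with doses and times as the study's text gives them. Strain, age, donor animals, and cultures are not given in the labels, and the study calls its RNA-Seq replicates independent and biological without tying libraries to animals or cultures, so p-values measure the spread between these libraries. Between 20411741 and 26851890 reads were counted on genes per library.

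The 12 libraries fell into 3 sets of 4, each set a run of consecutive library numbers with 1 library of every condition. After removal of condition means, residuals correlated at 0.673 on average within sets and at −0.37 between them, so values within set 1, set 2, and set 3 are given beside the pooled values. All 8 macrophage markers were present in all libraries, with a summed level of 17634 to 20667 CPM (reads of a gene relative to the scaled total of its library) in PBS and 25142 to 28023 CPM in LPS. T and NK cell markers summed to at most 0.161 CPM. B cell markers summed to 2.39 to 5.08 CPM in PBS and 1.45 to 3.42 CPM in LPS. Among them Ebf1 reached 3.27 CPM and Cd79b 2.27 CPM, while Pax5 stayed at or below 0.107 CPM. Neutrophil markers summed to 77.0 to 313 CPM in PBS and 120 to 553 CPM in LPS, mostly through Ngp and Ltf, while Ly6g stayed at or below 1.18 CPM. Stromal markers reached 525 to 611 CPM in set 1 against 22.2 to 96.2 CPM in the other sets. The 6 plasmacytoid dendritic cell markers summed to 79.7 to 83.9 CPM in PBS and 200 to 320 CPM in LPS, mostly through Tcf4. Among the others, Ccr9 and Cox6a2 had reads in every library, at up to 3.07 CPM. Siglech and Ly6d stayed at or below 0.614 CPM, and no read of Klk1 was found in 11 libraries. Conventional dendritic cell markers summed to 0.912 to 1.48 CPM in PBS and 5.62 to 14.8 CPM in LPS, mostly through Xcr1, and endothelial markers to 7.52 to 13.7 and 18.5 to 28.7 CPM. The part of these markers in the results that follow was not tested.

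Promoter sequences are shown for 4 receptors because they span the responses described below. Tlr2 and Tlr6, like Tlr1, are surface receptors that rose with LPS, and Tlr5 and Tlr13 fell. RefSeq windows of 250 bases before the start site (GRCm38.p6) were matched by symbol for 8 of the 10 genes, and only bases outside annotated exons are printed, 5′ to 3′ on the strand of the gene. Capitals mark matches, on either strand, to an NF-κB-like pattern, written as GGG followed after any 5 bases by CC, or to the TATA box TATAAA.
Tlr2, chr3:83841768-83841858, minus strand: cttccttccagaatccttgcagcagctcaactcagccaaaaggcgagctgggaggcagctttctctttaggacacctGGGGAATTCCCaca
Tlr6, chr5:64960098-64960298, minus strand: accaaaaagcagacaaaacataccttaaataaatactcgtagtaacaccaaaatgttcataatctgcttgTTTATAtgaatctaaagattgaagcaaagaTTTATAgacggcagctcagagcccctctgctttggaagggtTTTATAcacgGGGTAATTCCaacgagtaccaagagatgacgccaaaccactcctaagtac
Tlr5, chr1:182954538-182954787, plus strand: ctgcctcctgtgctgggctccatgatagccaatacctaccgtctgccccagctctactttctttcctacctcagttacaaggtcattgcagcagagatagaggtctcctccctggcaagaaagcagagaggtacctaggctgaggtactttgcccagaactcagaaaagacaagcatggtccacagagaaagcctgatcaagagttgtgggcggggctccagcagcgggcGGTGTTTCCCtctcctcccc
Tlr13, chrX:106143025-106143203, plus strand: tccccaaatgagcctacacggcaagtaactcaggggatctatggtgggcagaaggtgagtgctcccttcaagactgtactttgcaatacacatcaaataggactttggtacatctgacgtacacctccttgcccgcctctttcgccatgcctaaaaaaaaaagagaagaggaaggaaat

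In Tlr2, 2 overlapping matches to the NF-κB-like pattern formed the 11-base run in capitals, 173 bases before the start. A match to this pattern was found in 4 of the 8 genes with a window (Tlr2, Tlr3, Tlr5, and Tlr6), against 45.8% of all 32851 promoter windows, so receptors that rose and one that fell both carried it. TATAAA was found in 2 of 8, Tlr6 and Tlr8, against 12.4% of all windows. AGGAAGT, the core bound by the macrophage factor PU.1, was found in Tlr1 and Tlr6 (7.69% of all windows). A pair of GAAA with any 2 bases between them, an interferon response pattern, was found in Tlr6 alone (2.98% of all windows). Both of these Tlr6 matches lay at a second RefSeq start, in an intron of the GENCODE M21 annotation. The 8 genes had 10 windows, because Tlr1 and Tlr6 had a second one, so counts per gene stand beside shares per window. The Tlr9 and Tlr13 windows held none of these letters. These are matches of letters and not measured binding sites.

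Resting BMDMs expressed mainly endosomal receptors. Levels of different genes are compared per kilobase of exon (CPM per kb, mean ± SD, n = 3). In PBS, Tlr13, the sensor of bacterial ribosomal RNA, had the highest receptor level at 151 ± 20.2 CPM per kb, and its libraries overlapped those of Unc93b1 (146 ± 39.4). Next came Tlr8 and Tlr7, sensors of RNA and its breakdown products, at 51.4 ± 8.05 and 47.8 ± 12.0 CPM per kb, which overlapped each other. Tlr1 (24.5 ± 5.51) and Tlr2 (20.9 ± 10.8) followed and also overlapped, then Tlr6 (5.37 ± 0.384). Tlr3, the sensor of double-stranded RNA, stood at 3.14 ± 0.0948 CPM per kb, Tlr9, the sensor of unmethylated CpG DNA, at 1.96 ± 0.63, and Tlr5, the flagellin receptor, at 0.278 ± 0.0865. From Tlr6 downward no gene's PBS libraries overlapped those of the next.

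After LPS, the order turned. Tlr2 was highest at 353 ± 8.22 CPM per kb, followed by Unc93b1 (259 ± 77.7), with which it overlapped, Tlr8 (183 ± 28.1), Tlr7 (136 ± 22.0), Tlr13 (97.0 ± 11.8), Tlr1 (88.0 ± 17.7), and Tlr3 (70.1 ± 10.6). The libraries of Tlr13 overlapped those of Tlr1, and those of Tlr1 overlapped Tlr3. Tlr6 (23.1 ± 2.09), Tlr9 (7.05 ± 3.76), and Tlr5 (0.0588 ± 0.0531) were the lowest. The 4 surface receptors made up 14.2, 14.8, and 20.3% of the summed per-kb level of the 9 receptors in PBS, and 50.2, 49.8, and 46.0% in LPS. Tlr13 alone held 46.4 to 51.4% of the sum in PBS and 9.99 to 10.3% in LPS, whereas Tlr2 held 4.92 to 9.91% in PBS and 33.7 to 39.4% in LPS. No library of one condition overlapped the other in any of these 3 shares.

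**Figure D1:**
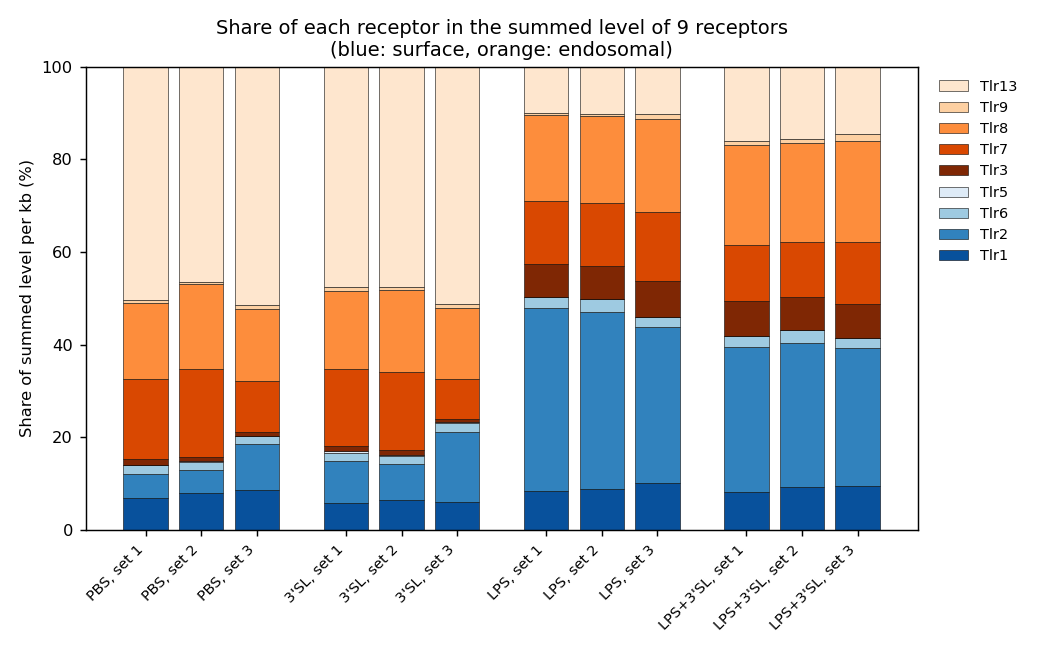
Share of each of the 9 receptors in their summed level per kb of exon (%, vertical axis) in each of the 12 libraries (horizontal axis, by condition and library set), with surface receptors in blue and endosomal receptors in orange. Tlr13 fills 46.4 to 51.4% of the bar in PBS and Tlr2 33.7 to 39.4% in LPS.

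All of these genes passed the test with LPS. In LPS against PBS, 8 of the 10 were called higher and 2, Tlr5 and Tlr13, lower, with calls made at 1.5-fold or more and an adjusted p below 0.05 (edgeR's quasi-likelihood test, Benjamini-Hochberg over all genes tested). In all 10 the LPS libraries did not overlap the PBS libraries, which held for 27.3% of all genes in the higher and 31.1% in the lower direction. In the same comparison, 38.5% of all genes tested were called, 18.3% higher and 20.2% lower. The median log2 fold change was 1.84 over the 10 genes and −0.061 over all genes tested. In bulk RNA, fewer cells of a type and less RNA per cell cannot be told apart. With libraries scaled by their totals instead of TMM factors, 57.3% of all genes were called, the median of all genes moved to −0.71 and the share of calls that were higher from 47.5 to 18.7%, yet all 10 genes kept their direction and 9 their call, all but Unc93b1.

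**Figure D2:**
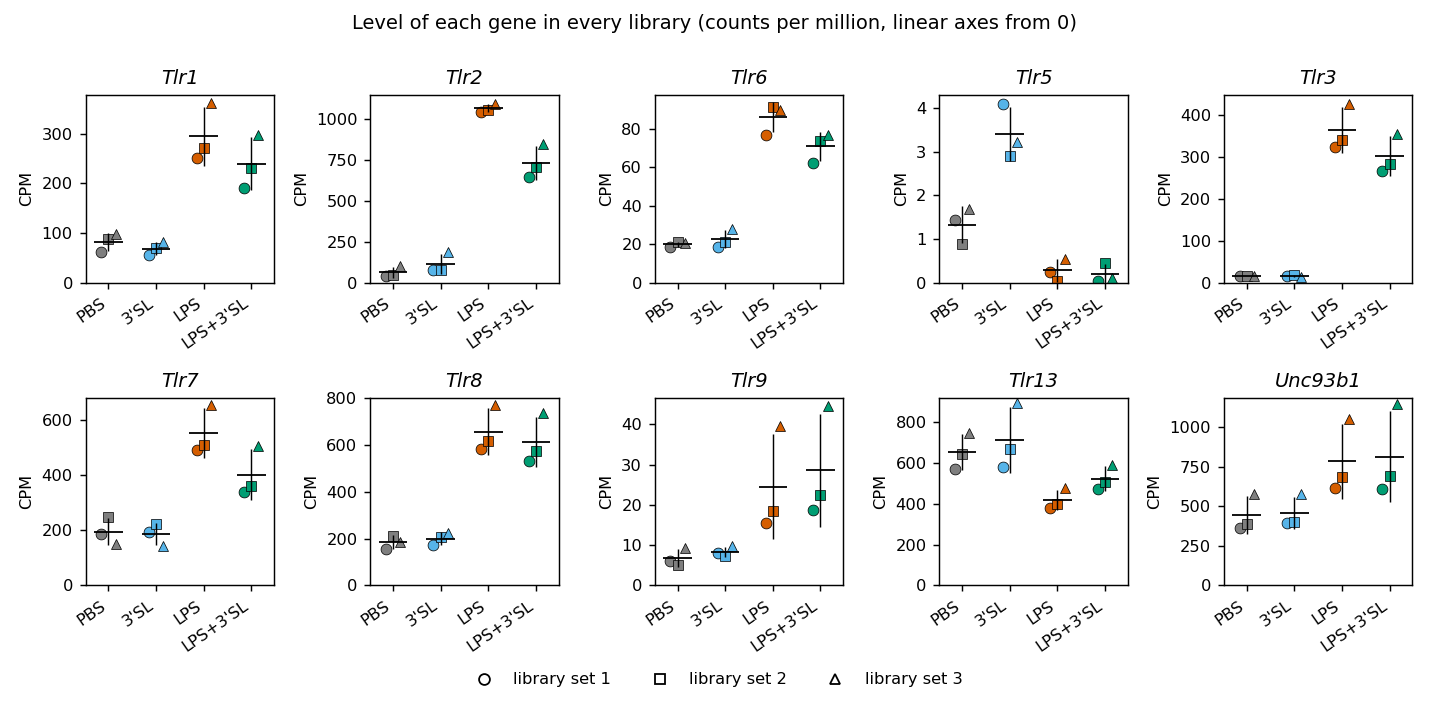
Level of each gene (CPM, vertical axes, linear from 0) under the 4 conditions, with circles, squares, and triangles for library sets 1, 2, and 3, horizontal lines for the mean, and vertical lines for ± SD (n = 3, cut at 0). LPS libraries lie above PBS libraries in 8 panels and below them in the panels of Tlr5 and Tlr13.

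Among surface receptors, Tlr2 responded most strongly. Tlr2 (chromosome 3, 83836272 to 83841767, GRCm38) stood at 41.0, 47.7, and 100.2 CPM in PBS in sets 1, 2, and 3, and at 1043, 1056, and 1091 CPM in LPS. The LPS libraries lay close together and far above every PBS library. The log2 fold change was 4.08 (SE 0.43, adjusted p = 2.51e-05, edgeR), 4.67, 4.47, and 3.44 within the sets, with the smallest value in set 3, where the PBS level was highest.

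The partners of TLR2 rose less. Tlr1 went from 61.5, 87.2, and 97.3 CPM in PBS to 251, 271, and 362 CPM in LPS, a log2 fold change of 1.84 (SE 0.23, adjusted p = 9.46e-05). Tlr6 went from 18.4, 21.1, and 20.5 CPM to 77.1, 91.4, and 89.7 CPM, a log2 fold change of 2.11 (SE 0.15, adjusted p = 2.37e-06) that was nearly the same in the 3 sets (2.07, 2.12, and 2.13). Neither gene's LPS libraries overlapped PBS. Tlr1 and Tlr6 are neighbors on chromosome 5 and share sequence, with 15.4% of the 50-nucleotide words of Tlr1 transcripts found in Tlr6 and 12.3% of the reverse, so reads from the shared stretch may be missing or ambiguous and their levels are uncertain to that extent.

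Tlr5 went the other way, at very low counts. It had 50, 25, and 50 reads in PBS (1.44, 0.877, and 1.69 CPM) and 5, 1, and 9 reads in LPS (0.244, 0.0484, and 0.552 CPM). Every LPS library lay below every PBS library. The log2 fold change was −2.27 (SE 0.74, adjusted p = 0.027), and the call was lost without PBS replicate 1 (adjusted p = 0.0583), PBS replicate 3 (0.0667), LPS replicate 1 (0.0745), or LPS replicate 2 (0.0778), or without library set 1 (0.129). When 1 library was left out, the log2 fold change ranged from −3.15 (without LPS replicate 3) to −1.75 (without LPS replicate 2). It was −2.93 without library set 3. In edgeR with library sets as a replicate block, Tlr5 was called (−2.30, adjusted p = 0.00852).

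Among endosomal receptors, Tlr3 rose most of all 10 genes. Tlr3 (chromosome 8, 45395665 to 45411080) went from 16.0, 16.9, and 16.2 CPM in PBS to 326, 341, and 428 CPM in LPS. The PBS libraries were almost level and the LPS libraries 22.3-fold higher in the fit, with no overlap. The log2 fold change was 4.48 (SE 0.17, adjusted p = 1.68e-07), 4.35, 4.33, and 4.72 within sets. An antisense gene, Gm45542, overlaps 381 bp of its exons (7.32% of their length), and whether counting used the strand is not stated.

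Tlr7, Tlr8, and Tlr9 rose as well. Tlr7 went from 187, 248, and 151 CPM in PBS to 494, 510, and 657 CPM in LPS, with set 3 lowest in PBS and highest in LPS, and changed by 1.5 log2 units (SE 0.24, adjusted p = 4.12e-04 (edgeR), within sets 1.40, 1.04, and 2.12). Tlr8 went from 155, 212, and 187 CPM to 581, 614, and 770 CPM, a log2 fold change of 1.83 (SE 0.18, adjusted p = 1.74e-05). Tlr9 was 5.94, 5.19, and 9.31 CPM in PBS and 15.5, 18.6, and 39.5 CPM in LPS, a log2 fold change of 1.85 (SE 0.42, adjusted p = 0.004). None of the 3 genes overlapped between PBS and LPS, and in all of them the highest LPS value came from set 3. Without library set 2 the Tlr9 call was lost (adjusted p = 0.0574), whereas edgeR with library sets as a replicate block called it (1.78, adjusted p = 6.24e-06).

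Tlr13 was the endosomal receptor that fell. Its levels were 569, 643, and 743 CPM in PBS and 378, 400, and 475 CPM in LPS. All LPS libraries lay below all PBS libraries, and within sets the log2 fold changes were −0.59, −0.69, and −0.65, closely alike. The pooled log2 fold change was −0.64 (SE 0.18, adjusted p = 0.0123). Without LPS replicate 1 or PBS replicate 3 it fell just under the 1.5-fold limit (−0.58 and −0.54), and without library set 1 or 2 the adjusted p was 0.061 or 0.164. Those fits had no block. In edgeR with library sets as a replicate block, Tlr13 was called (−0.64, adjusted p = 2.50e-05).

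Unc93b1, the chaperone on which the endosomal receptors depend, rose only modestly. It stood at 362, 388, and 581 CPM in PBS and at 614, 686, and 1053 CPM in LPS, with set 3 highest in both and no overlap. The log2 fold change was 0.82 (SE 0.30, adjusted p = 0.0431), 0.76, 0.82, and 0.86 within sets. In edgeR with library sets as a replicate block, Unc93b1 was called (0.82, adjusted p = 3.80e-06). With total counts and the block it was not (0.16, adjusted p = 0.0689). Without the block, the call depended on scaling and on single libraries. With total counts the change was 0.15 (adjusted p = 0.54), and the call was lost without PBS replicate 1 or 2, 3′SL replicate 1 or 2, LPS replicate 2 or 3, or LPS + 3′SL replicate 2 (adjusted p from 0.0522 to 0.181), and without library set 1 or 2 (0.122 and 0.221).

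The median responses of surface and endosomal receptors to LPS lay close together. The surface median is the midpoint of Tlr1 and Tlr6, so the sizes of the Tlr2 and Tlr5 changes do not enter it. With so few genes the medians cannot show whether the groups differ. The median log2 fold change was 1.97 over the 4 surface and 1.83 over the 5 endosomal receptors, and the difference of 0.15 was smaller than its SD over library sets (0.36, with 0.65, 0.34, and −0.075 in sets 1, 2, and 3). Each group held 1 strongly induced gene, Tlr2 or Tlr3, and 1 that fell, Tlr5 or Tlr13. The larger surface share after LPS stood beside the rise of Tlr2 and the fall of Tlr13.

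In the presence of 3′SL the response to LPS had the same directions. In LPS + 3′SL against 3′SL, 7 genes were called higher and Tlr5 lower, where 29.2% of all genes tested were called, 14.3% higher and 14.8% lower. Tlr3 (log2 fold change 4.29, SE 0.17, adjusted p = 5.28e-07) and Tlr2 (2.69, SE 0.40, adjusted p = 4.22e-04) again rose most. Tlr5 was −3.99 (SE 0.77, adjusted p = 0.00209), from 110, 73, and 81 reads to 1, 10, and 2. When 1 library was left out, Tlr5 ranged from −5.38 (without LPS + 3′SL replicate 2) to −3.53 (without LPS + 3′SL replicate 1). It was −3.38 without library set 1 and −5.48 without library set 2. Tlr9 was called (1.77, adjusted p = 0.00651), but not without library set 2 (0.079). Tlr13 did not pass (−0.45, under the 1.5-fold limit, adjusted p = 0.073) except with total counts (−0.92, adjusted p = 1.06e-04). In edgeR with library sets as a replicate block, its adjusted p was 7.05e-04 but its change of −0.43 stayed under the 1.5-fold limit. Unc93b1 did not pass either (0.83, adjusted p = 0.0514), but was called with the block (0.80, adjusted p = 6.65e-06) and by DESeq2 (0.86, adjusted p = 0.0201).

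**Figure D3:**
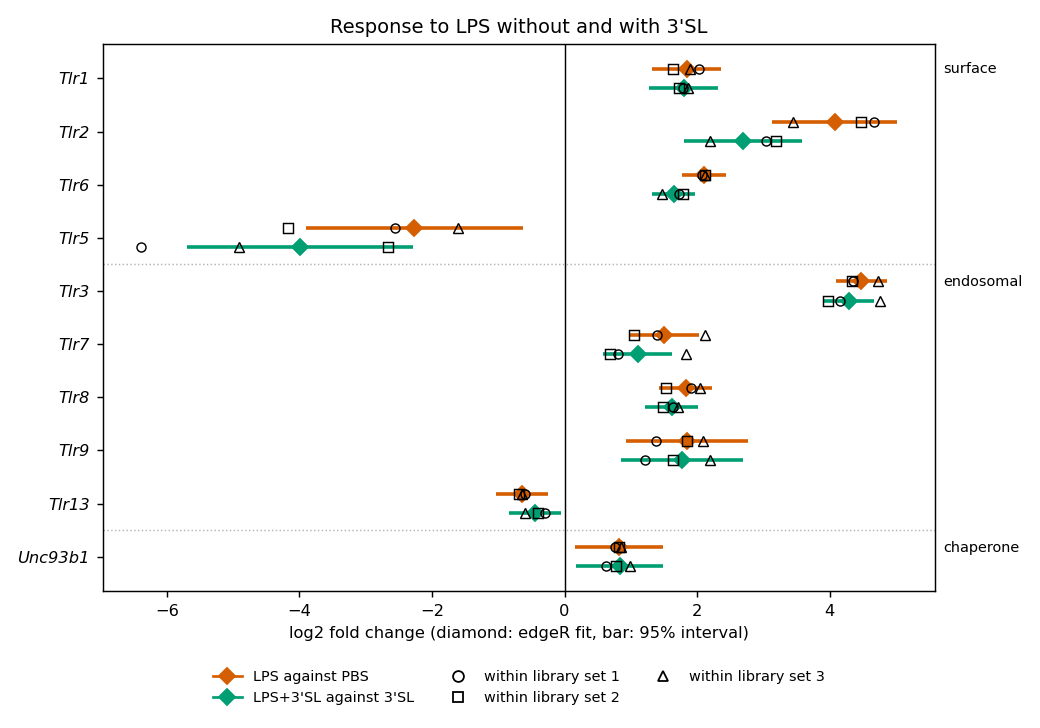
Log2 fold change (horizontal axis) of each gene in LPS against PBS (orange) and LPS + 3′SL against 3′SL (green), with diamonds for the edgeR fit, bars for its 95% interval, and open symbols for the values within library sets. Tlr2 and Tlr3 lie farthest to the right (4.08 and 4.48 in LPS against PBS), Tlr5 farthest to the left.

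In edgeR without the sets as a block, the comparisons of 3′SL gave no call among these genes or any other. In 3′SL against PBS, in LPS + 3′SL against LPS, and in the interaction of the treatments, 0 of the 10 genes and 0.00% of all genes tested were called by edgeR without a block. At an unadjusted p under 0.05 there was 1 of the 10, Tlr2, in 3′SL against PBS (10.1% of all genes), none in LPS + 3′SL against LPS (6.95%), and 2 in the interaction, Tlr2 and Tlr6 (6.09%). DESeq2 without a block called 0.615, 0.790, and 0.308% of all genes in the 3 comparisons, and none of the 10. With the sets as a block, edgeR called 2.84, 1.45, and 1.55% of all genes, among them Tlr2 in the interaction alone of the 10.

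For Tlr2, the values with 3′SL lay above PBS in the absence of LPS and below LPS in its presence, though neither difference passed the adjusted test. Without LPS it was 41.0, 47.7, and 100.2 CPM in PBS and 78.0, 76.7, and 185 CPM in 3′SL. With LPS it was 1043, 1056, and 1091 CPM in LPS alone and 643, 704, and 844 CPM in LPS + 3′SL. In every set 3′SL was above PBS, although the pooled libraries overlapped, and every LPS + 3′SL library was below every LPS library, as for 6.50% of all genes tested. The log2 fold change was 0.85 without LPS (95% interval 0.0043 to 1.69, adjusted p = 0.493, within sets 0.93, 0.69, and 0.89) and −0.54 with LPS (−1.38 to 0.29, adjusted p = 0.957, within sets −0.70, −0.59, and −0.37).

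The test of that difference, the interaction, was −1.39 for Tlr2 (SE 0.54, unadjusted p = 0.0258, adjusted p = 0.746, edgeR), −1.63, −1.27, and −1.26 within the sets. It passed with the sets as a replicate block (−1.41, adjusted p = 0.0476), and did not with total counts and the block (−1.22, adjusted p = 0.104). Without 3′SL replicate 3 the interaction was −0.80, and the change without LPS fell to 0.26 (adjusted p = 0.999). That fit had no block and kept the PBS library of set 3, the highest in PBS (100.2 CPM), without its 3′SL partner. The change without LPS had an adjusted p of 0.0505 with the block in edgeR. DESeq2 with the block called both that change (0.85, adjusted p = 0.00639) and the interaction (−1.43, adjusted p = 0.0011). Of all 14308 genes it called 648 and 506 in these 2 comparisons. Without library set 3, where PBS and 3′SL levels were highest, Tlr2 was called in 3′SL against PBS (0.78, adjusted p = 0.0117), in LPS + 3′SL against LPS (−0.63, adjusted p = 0.0225), and in the interaction (−1.42, adjusted p = 0.0119). In the same comparisons 87, 149, and 44 of all 14396 genes tested were called without that set. Leaving out set 3 and DESeq2 with the block were alternatives chosen after seeing the data.

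Tlr6, a partner of TLR2, had small differences with 3′SL, of which none passed the adjusted test. Its levels were 18.8, 21.4, and 27.9 CPM in 3′SL against 18.4, 21.1, and 20.5 CPM in PBS, and 62.5, 73.6, and 77.0 CPM in LPS + 3′SL against 77.1, 91.4, and 89.7 CPM in LPS. PBS and 3′SL overlapped, whereas the highest LPS + 3′SL library lay just under the lowest LPS library. Without LPS its log2 fold change was 0.18, most of it from set 3 (0.035, 0.019, and 0.44 within sets), and it ranged from −0.027 to 0.30 when 1 library was left out. With LPS it was −0.28 (adjusted p = 0.809), and the difference between the changes was −0.46 (SE 0.21, unadjusted p = 0.0482, adjusted p = 0.813).

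None of the 10 genes passed the test for 3′SL on top of LPS. Tlr1 (−0.30), Tlr3 (−0.27), Tlr7 (−0.46), and Tlr8 (−0.098) were lower in every set, as were Tlr2 and Tlr6, so that 6 of 10 genes lay lower in every set against 25.7% of all genes tested. Tlr9 (0.22) and Tlr13 (0.32) were higher in every set, 2 of 10 against 21.3% of all genes. In edgeR without the block, the adjusted p was from 0.785 to 1.0 for Tlr1, Tlr3, Tlr7, Tlr8, Tlr9, and Tlr13. The 95% intervals of log2 fold changes in that fit ran from −0.97 to 0.056 for Tlr7 and from −0.07 to 0.71 for Tlr13. With the block, the adjusted p was 0.0594 for Tlr13 and 0.0793 for Tlr1. It was from 0.338 to 0.713 for Tlr3, Tlr7, Tlr8, and Tlr9. Unc93b1 was 0.056 (95% interval −0.60 to 0.71). The surface share of the summed per-kb receptor level was 41.9, 43.1, and 41.6% in LPS + 3′SL, below the 46.0 to 50.2% of LPS alone, with Tlr2 at 29.9 to 31.2% of the sum and Tlr13 at 14.6 to 16.0%. The median log2 fold change of surface minus endosomal receptors was −0.24 (−0.42, −0.16, and −0.26 within sets, SD 0.13), but its surface median is the midpoint of Tlr1 and Tlr5, and Tlr5 had at most 10 reads per library here, so no difference between compartments is read from it.

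**Figure D4:**
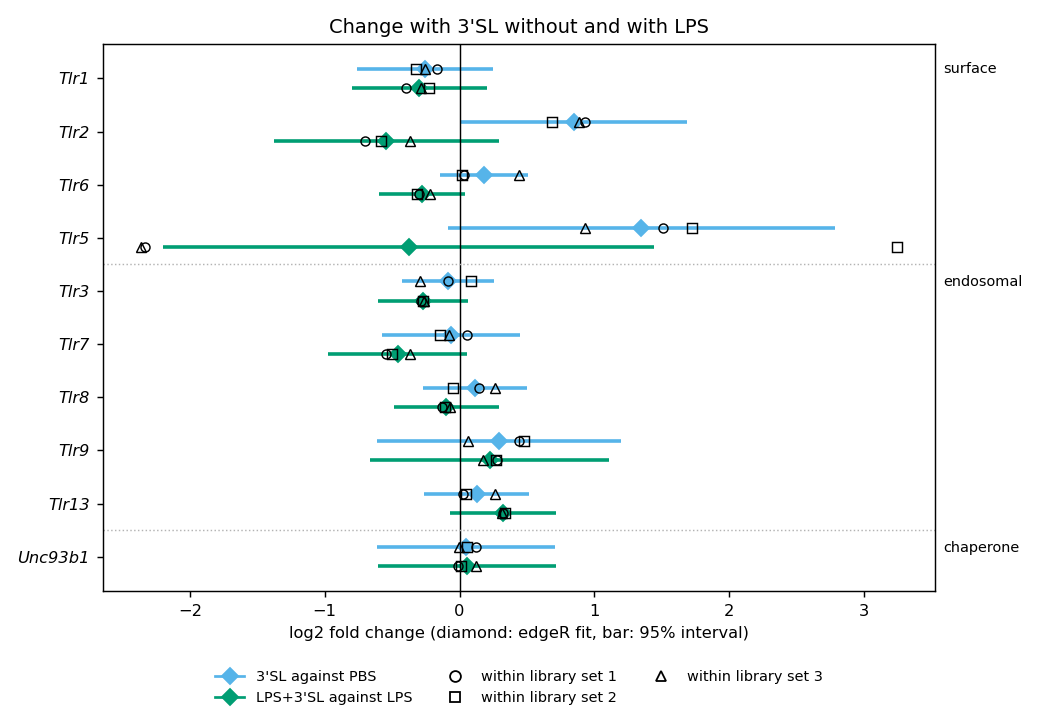
Log2 fold change (horizontal axis) of each gene in 3′SL against PBS (blue) and LPS + 3′SL against LPS (green), with diamonds for the edgeR fit, bars for its 95% interval, and open symbols for the values within library sets. Tlr2 lies at 0.85 without and −0.54 with LPS, and no gene passed the test in either comparison.

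Without LPS, Tlr5 had the largest difference with 3′SL among the 10 genes. It rested on 50, 25, and 50 reads in PBS and 110, 73, and 81 reads in 3′SL (4.09, 2.90, and 3.22 CPM). All 3′SL libraries lay above all PBS libraries, as for 9.02% of all genes tested. The log2 fold change was 1.35 (SE 0.65, 95% interval −0.089 to 2.79, adjusted p = 0.536), 1.51, 1.73, and 0.93 within sets. With LPS too few reads were left to compare, and the values within sets pointed both ways (−2.33, 3.25, and −2.37). Tlr1 was −0.25, and Tlr3, Tlr7, Tlr8, Tlr9, Tlr13, and Unc93b1 lay between −0.086 and 0.29 without LPS, none past the test.

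Other mouse TLRs give the frame for these values. Tlr4 was 131, 151, and 109 CPM in PBS and 187, 184, and 215 CPM in LPS, a log2 fold change of 0.58 (adjusted p = 0.00332) just under the 1.5-fold limit, which passed it with DESeq2 size factors (0.64, adjusted p = 0.00221) and turned to −0.081 with total counts. Tlr11, an endosomal receptor for the parasite protein profilin, was called higher (log2 fold change 4.08, adjusted p = 0.00257) but reached at most 2.09 CPM in any library, from 1, 6, and 0 reads in PBS to 22, 35, and 23 in LPS. Tlr12 had at most 9 reads in a library and was not tested.

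Genes that fold and move the receptors changed in both directions with LPS. Of 10 tested, 2 were called higher and 2 lower, a share close to the 38.5% of all genes called, and their median log2 fold change was 0.11. With total counts 1 was called higher and 4 lower, where 1535 and 6657 of all 14308 genes were. The higher ones were adaptor protein subunits that sort receptors between membranes, Ap3b1 (1.48, adjusted p = 7.91e-05) and Ap1g1 (0.62, adjusted p = 5.72e-04), and the Ap1g1 change turned to −0.041 with total counts. The lower ones were Cnpy3 and Cnpy4, which help TLRs fold, at −0.66 (adjusted p = 0.00277) and −0.96 (adjusted p = 0.0212). Cnpy3 went from 57.4, 64.8, and 77.2 CPM in PBS to 41.5, 46.0, and 39.2 CPM in LPS. Hsp90b1, the chaperone with which CNPY3 works, was −0.036 (adjusted p = 0.871), a gene named after its values were seen.

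None of the 7 endolysosomal proteases tested, the cathepsins and legumain that cut the endosomal receptors into active form, was called with LPS (median log2 fold change 0.18, and 1 below an unadjusted p of 0.05). DESeq2 called Ctsh higher, and edgeR with the sets as a block called Ctsh and Ctss higher. With total counts edgeR called 3 of the 7 lower, where 6657 of all 14308 genes were called lower. Of 8 nucleic acid processing genes tested, 4 were called higher and 2 lower (18.3 and 20.2% of all genes), and 3 and 3 with total counts (57.3% of all genes called in either direction). Samhd1, which hydrolyzes deoxynucleotides, rose from 182, 217, and 237 CPM to 2100, 2523, and 3915 CPM (log2 fold change 3.75, adjusted p = 1.11e-05). Dnase1l3, a secreted DNase, rose by 3.12 (adjusted p = 0.00164) at levels of at most 3.81 CPM. Dnase2a, the lysosomal DNase that prepares DNA for TLR9, fell from 111, 124, and 114 CPM to 52.3, 55.5, and 44.9 CPM (log2 fold change −1.19, adjusted p = 6.85e-06). Hmgb1, a nuclear DNA-binding protein, was also lower (−0.90, adjusted p = 0.00971).

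Surface co-receptors, adaptors, and regulators were called higher or not at all in the fit with TMM factors and no block. With total counts 1, 5, and 4 of them were called lower, where 6657 of all 14308 genes were called lower. Among the negative regulators, the block called Il1rl1 and Sigirr lower and DESeq2 called Sigirr lower, genes named after their values were seen. Of 8 co-receptors 5 were called higher (median 0.69, against 18.3% of all genes called higher), led by Cd14, which hands lipids to TLR4 and TLR2 (2.68, adjusted p = 2.53e-04), and Ly96, the partner of TLR4 (log2 fold change 1.2, adjusted p = 8.16e-04). With total counts only 1 co-receptor kept its call. Of 16 adaptors and kinases tested, 10 were called higher (median 0.92, again against 18.3%), 6 of them also with total counts, which called 1535 of all 14308 genes higher. Irf7, which drives interferon genes downstream of TLR7 and TLR9, rose by 4.67 (adjusted p = 0.00106), and Myd88 from 45.7, 44.4, and 66.8 CPM to 315, 366, and 464 CPM (2.87, adjusted p = 1.18e-05). Of 12 negative regulators 6 were called higher (median 0.87, against the same 18.3%), with Socs1 at 6.79 (adjusted p = 2.18e-05) and Nfkbia, the inhibitor of NF-κB, at 3.80 (adjusted p = 2.72e-05). Over the 63 genes of these lists tested, edgeR called none in 3′SL against PBS, LPS + 3′SL against LPS, or the interaction, while 8, 6, and 3 of them had an unadjusted p below 0.05, where all genes gave 10.1, 6.95, and 6.09%. With the block it called 2 (Hsp90b1 and Cd14), 2 (Irak3 and Tnfaip3), and 1 (Irak3), where all genes gave 2.84, 1.45, and 1.55%, and DESeq2 called 1 (Hsp90b1), 1 (Irak3), and 0 (0.615, 0.790, and 0.308% of all genes). These genes were named after their values were seen.

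For each of the 10 genes, the most similar profile was sought among tested genes with a symbol, leaving out the 10 themselves. It was taken as the highest Pearson correlation of log2(CPM + 1) over the 12 libraries, which share the LPS step and the library sets. It was Pstpip2 for Tlr2 (r = 0.997), Gm18853 for Tlr3 (0.998), Nod2 for Tlr6 (0.998), Clec2d for Tlr1 (0.994), 4932438A13Rik for Tlr8 (0.997), and Baiap2l1 for Tlr7 (0.992). For Tlr9 it was Vav1 (0.995), for Unc93b1 Ube2q1 (0.992), for Tlr13 Aspscr1 (0.974), and for Tlr5 Mmd (0.953). These are descriptions of profiles that the LPS response dominates.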

How the data were processed

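RNA-Seq libraries of BMDMs were grouped by the intervention given in their labels, with 3 libraries per condition. For each library the deposited file holds the authors' raw counts of reads on genes, whole and not normalized, and the submitters' processing notes name FastQC, Trimmomatic, STAR, HTSeq, and DESeq2. The genome build, tool versions, and strand setting are not given in the sources used here. Summary lines that name no gene were left out. Of the reads on genes, without a feature, or ambiguous, those without a feature were 6.10 to 8.22% per library. Ambiguous reads were 2.56 to 3.14%. Not in these shares are the 8634639 to 11273250 alignments per library counted as not unique. Identifiers were matched to GENCODE M21 (GRCm38), which named 42462 of 43626 genes, and all 10 genes of interest. Coordinates and exon lengths come from that annotation.

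Counts were analyzed with edgeR 4.0.16 in R 4.3.3 (filterByExpr, TMM factors, quasi-likelihood test, 1 mean per condition over all 12 libraries), with Benjamini-Hochberg adjustment over the 14308 genes tested. Calls required an adjusted p below 0.05 and a change of 1.5-fold or more. Levels are CPM based on library sizes after TMM scaling, mean ± SD over 3 libraries, and depth limits genes with few reads, such as Tlr5. Per-kb levels divide by the exonic length of a gene. The procedure was tested on simulated data without library sets, so that test does not show how the fit performs with the sets found here. Alternatives were other scalings, filters, DESeq2 1.42.0, fits on the compared conditions alone, leaving out each library or library set, and library sets as a replicate block. Sets come from runs of 4 library numbers, which matched the clusters of residuals for 12 of 12 libraries (lowest correlation within a set 0.529), so the sets pair the libraries.

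The 10 genes, the pathway lists, and the tests were chosen with earlier results of these data known. All 10 genes are named, and of each other list up to 2 genes per direction with the largest change among those called. The labels describe injections in mice, which were not used here.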

Additional observations from a re-analysis of the deposited data

Results flagged for a closer look

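The effect of 3′SL differed with and without LPS for 2 of the 10 genes by the unadjusted test of that difference. For Tlr2 the log2 difference was −1.39 (unadjusted p = 0.0258), lower in 3 of 3 library sets, and the adjusted p was 0.746 by edgeR and 0.449 by DESeq2. For Tlr6 it was −0.46 (unadjusted p = 0.0482, adjusted p = 0.813), also lower in 3 of 3 sets. An unadjusted p under 0.05 was found for 6.09% of all genes tested in this interaction.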

How the results depend on the processing

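The directions of all 10 genes in LPS against PBS and in LPS + 3′SL against 3′SL held under all alternatives run, while comparisons of 3′SL held values near 0 that changed sign. The number of genes called stayed between 8 and 10 in LPS against PBS when 1 library was left out, where 4665 of 14722 to 5748 of 14653 genes tested were called. It was 7 without library set 1 or 2, where 4194 of 14198 and 3516 of 14426 genes tested were called. In 3′SL against PBS it rose from 0 to 1 without library set 3 or with DESeq2 and the replicate block. In LPS + 3′SL against LPS it rose to 1 without library set 3. In the interaction it rose to 1 with edgeR or DESeq2 and the replicate block or without library set 3. The gene was Tlr2 each time. Without set 3, 87, 149, and 44 of all 14396 genes tested were called in these comparisons. Of all 14308 genes, DESeq2 with the block called 648, 284, and 506, and edgeR with the block 406, 207, and 222. Alternatives that leave out a set or combine the block with DESeq2 or total counts were chosen after seeing the data. The surface minus endosomal difference in LPS against PBS ranged from 0.11 to 0.51 when 1 library was left out.

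Signs turned as follows, with the cause not tested. With total counts the log2 interaction was 0.13 for Tlr1 and 0.099 for Tlr9, and 0.12 and 0.074 with the replicate block added, and Unc93b1 in 3′SL against PBS was −0.044 and −0.028. The Unc93b1 interaction was −0.0093 with DESeq2 size factors or DESeq2, −0.018 with the replicate block, −0.032 with DESeq2 and the block, and −0.062 without library set 3. Without library set 1 the Tlr1 interaction was 0.026 and Tlr5 in LPS + 3′SL against LPS was 0.021, and without set 3 the latter was 0.78. Leaving out 1 library at a time gave interactions of −0.23 to 0.13 for Tlr1, −0.54 to 0.45 for Tlr9, and −0.32 to 0.28 for Unc93b1. In 3′SL against PBS it gave −0.027 to 0.30 for Tlr6, −0.22 to 0.15 for Tlr7, −0.0076 to 0.23 for Tlr8, −0.10 to 0.25 for Tlr13, and −0.19 to 0.29 for Unc93b1. In LPS + 3′SL against LPS it gave −1.76 to 0.50 for Tlr5, −0.25 to 0.036 for Tlr8, −0.25 to 0.75 for Tlr9, and −0.27 to 0.33 for Unc93b1. In edgeR with TMM factors, the replicate block changed no other call of the 10 genes than those of Tlr2 in the interaction and Unc93b1 in LPS + 3′SL against 3′SL.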
